A study of Mus musculus with 2 samples.

Results

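The anterior genes of the HoxC and HoxD clusters, *Hoxc4*, *Hoxc5*, *Hoxc6* and *Hoxc8* and *Hoxd1*, *Hoxd3*, *Hoxd4* and *Hoxd8*, were followed in the open chromatin of embryonic mouse kidney. Open chromatin was read by snATAC-seq, which counts transposase cuts nucleus by nucleus. The 8 genes, of 39 Hox genes in all, were taken by name, and a region was assigned to a gene where it overlapped the GENCODE M21 gene body or the 2 kb before it on the mm10 genome. Since each library had a peak list of its own, peaks that overlapped between the libraries were joined into shared regions. Of 110706 shared regions 25 belonged to the 8 genes, 12 to the Hoxc genes and 13 to the Hoxd genes.

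All 8 genes lie on the plus strand, in order from the posterior side. On HoxC they were *Hoxc8* (ENSMUSG00000001657.7) at chr15:102990607-102994111, *Hoxc6* (ENSMUSG00000001661.5) at chr15:102998257-103011881, *Hoxc5* (ENSMUSG00000022485.3) at chr15:102967443-103017429 and *Hoxc4* (ENSMUSG00000075394.4) at chr15:103018934-103036852. On HoxD they were *Hoxd8* (ENSMUSG00000027102.4) at chr2:74704615-74707933, *Hoxd4* (ENSMUSG00000101174.8) at chr2:74711929-74729160, *Hoxd3* (ENSMUSG00000079277.9) at chr2:74711927-74748442 and *Hoxd1* (ENSMUSG00000042448.5) at chr2:74762980-74765142. The protein-coding transcript of *Hoxc5* begins only at base 103013815 and that of *Hoxd4* at base 74721978, since longer non-coding transcripts belong to both gene models.

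There were 2 groups of E15.5 kidneys, with 1 library each. Enl-WT kidneys were Enl +/+ and Enl-T1 kidneys were heterozygous for flox-T1, an allele of *Enl* (*Mllt1*) from which Cre switches on a small in-frame insertion seen in Wilms tumour. Animals of both groups were also Wt1GFPCre/+, a knock-in that places Cre under the *Wt1* promoter and takes out that copy of *Wt1*, so the controls carried it too. This Cre acts in the nephron and stromal lineages and not in ureteric epithelium or endothelium. The mice were B6, embryo sex was not determined, and the sources used here do not give how many embryos went into a library. Because each group was 1 library, there was no replicate spread and no difference was tested. Every interval in parentheses is a 95% interval that covers counting error only.

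Hox genes encode homeodomain transcription factors and lie in clusters in the order in which they are used along the body axis, the anterior genes at one end and the posterior genes at the other. They bind DNA together with PBX and MEIS proteins. In the kidney the posterior Hox11 genes are required for the nephrogenic mesenchyme, whereas the anterior genes are best known from the spine, hindbrain and spinal cord. ENL reads acetylated histones and takes part in transcription elongation, and Hox genes are among the genes on which it acts.

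Levels are given as CPM, a gene's counts per 1000000 counts of the same nuclei in all shared regions. Kept nuclei numbered 9472 for Enl-WT (median depth 14789.5 counts) and 12635 for Enl-T1 (8753 counts), and 149 of their barcodes occurred in both libraries. Clusters of nuclei, built without the 4 Hox loci and named from markers, gave 2175 and 4083 nephron progenitor-like, 2941 and 4789 stroma-like, 908 and 1764 ureteric epithelium-like, and 766 and 619 endothelial-like nuclei. In progenitor-like nuclei the 8 progenitor markers (*Six2*, *Cited1*, *Eya1* and others) summed to 500.2 CPM in the control and 401 in Enl-T1, the early nephron markers to 429.6 and 494, and the stroma markers to 245 and 221. The podocyte markers summed to 523 and 467 there, more than the progenitor markers, and clusters were named by ratios to the median cluster and not by such sums. No marker of the first 3 lists was at 0, but this also held in stroma-like, ureteric epithelium-like and endothelial-like nuclei. The part of the markers in the Hox values was not tested. The progenitor-like nuclei came from different clusters, with clusters 3 and 13 holding 69.1% and 30.2% of those of Enl-WT and clusters 0 and 6 holding 67.9% and 29.3% of those of Enl-T1. In this class, cluster and genotype cannot be told apart.

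Sequences are shown for the region that differed most between the libraries in progenitor-like nuclei, for the start of a Hoxd gene whose CPM was alike there over peaks of unlike width, and for the Hoxc region that differed most. The *Hoxd4* sequence is the 250 bases before its RefSeq start (GRCm38.p6, chr2:74721728-74721977, plus strand). The *Hoxd8* sequence is the 250 bases before its RefSeq start (chr2:74704365-74704614, plus strand). The *Hoxc4* sequence is the middle 250 bases of the region inside its long intron (chr15:103032898-103033147, plus strand). Capitals mark matches, on either strand, to TGATTTAT or TGATTGAT (bound by HOX with PBX), TGACAG (MEIS), TTTATTG (CDX or posterior HOX) or AGGTCA (the core bound by nuclear receptors, written TGACCT on the other strand).

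Hoxd4: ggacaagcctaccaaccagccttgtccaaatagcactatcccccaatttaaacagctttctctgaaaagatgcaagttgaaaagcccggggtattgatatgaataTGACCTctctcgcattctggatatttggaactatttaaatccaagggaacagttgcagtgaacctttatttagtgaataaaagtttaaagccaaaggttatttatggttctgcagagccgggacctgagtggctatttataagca

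Hoxd8: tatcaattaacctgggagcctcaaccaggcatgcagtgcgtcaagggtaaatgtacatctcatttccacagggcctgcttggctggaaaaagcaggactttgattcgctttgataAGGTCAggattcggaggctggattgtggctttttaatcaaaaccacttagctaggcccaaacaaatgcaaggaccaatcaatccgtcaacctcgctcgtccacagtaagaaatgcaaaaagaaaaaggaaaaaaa

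Hoxc4 intron: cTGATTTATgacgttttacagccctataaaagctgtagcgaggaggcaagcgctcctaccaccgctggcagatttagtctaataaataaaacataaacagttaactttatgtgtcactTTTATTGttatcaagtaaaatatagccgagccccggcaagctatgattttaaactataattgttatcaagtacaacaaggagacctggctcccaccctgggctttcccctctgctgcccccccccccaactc

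AGGTCA occurred once before *Hoxd4* and once before *Hoxd8*, and it was in 4 of the 5 RefSeq promoters at hand for the 8 genes, those of *Hoxc4*, *Hoxd3*, *Hoxd4* and *Hoxd8* but not *Hoxd1*. Of 32817 RefSeq promoters cut to the same 250 bases, 14.0% held it. The intron sequence held 1 TGATTTAT, which 0.838% of the promoters held, and 1 TTTATTG, found in 1378 of them. TGATTGAT (0.670% of promoters) and TGACAG (15.9%) were not in these 3 windows. The sequence before *Hoxd4* was 40.4% G and C and that before *Hoxd8* 44.4%, against a median of 52.4%. The promoters of *Hoxd1*, *Hoxd3*, *Hoxd4* and *Hoxd8* lay in a shared region and that of *Hoxc4* did not.

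The Hoxc and Hoxd regions differed in the order of their levels over the classes of the control kidney. The 12 Hoxc regions together had 295 CPM (288 to 303) in stroma-like and 274 CPM (265 to 282) in progenitor-like nuclei of Enl-WT. They had 173 CPM (164 to 183) in distal tubule or loop-like and 142 CPM (132 to 154) in proximal tubule-like nuclei. The lowest levels were 78.7 CPM (71.1 to 86.9) in endothelial-like, 66.6 CPM (60.3 to 73.3) in ureteric epithelium-like and 58.9 CPM (38.7 to 86.0) in immune-like nuclei, whose intervals overlapped. The 13 Hoxd regions were instead highest in the ureteric epithelium-like nuclei, with 272 CPM (259 to 285), followed by 239 CPM (228 to 249.9) in distal tubule or loop-like, 219.8 CPM (212 to 227) in progenitor-like and 199 CPM (192 to 205) in stroma-like nuclei. The endothelial-like level, 148 CPM (137 to 159), and the proximal tubule-like level, 139.5 CPM (129 to 151), overlapped, and the immune-like interval, 31.5 to 75.4, lay under all others. Cluster 18, which stayed unnamed because podocyte and mesothelium markers scored alike in it, held 342 control nuclei and 1 of Enl-T1, and had 187 CPM (168 to 208) in the Hoxc and 201 CPM (182 to 223) in the Hoxd regions.

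**Figure D1:**
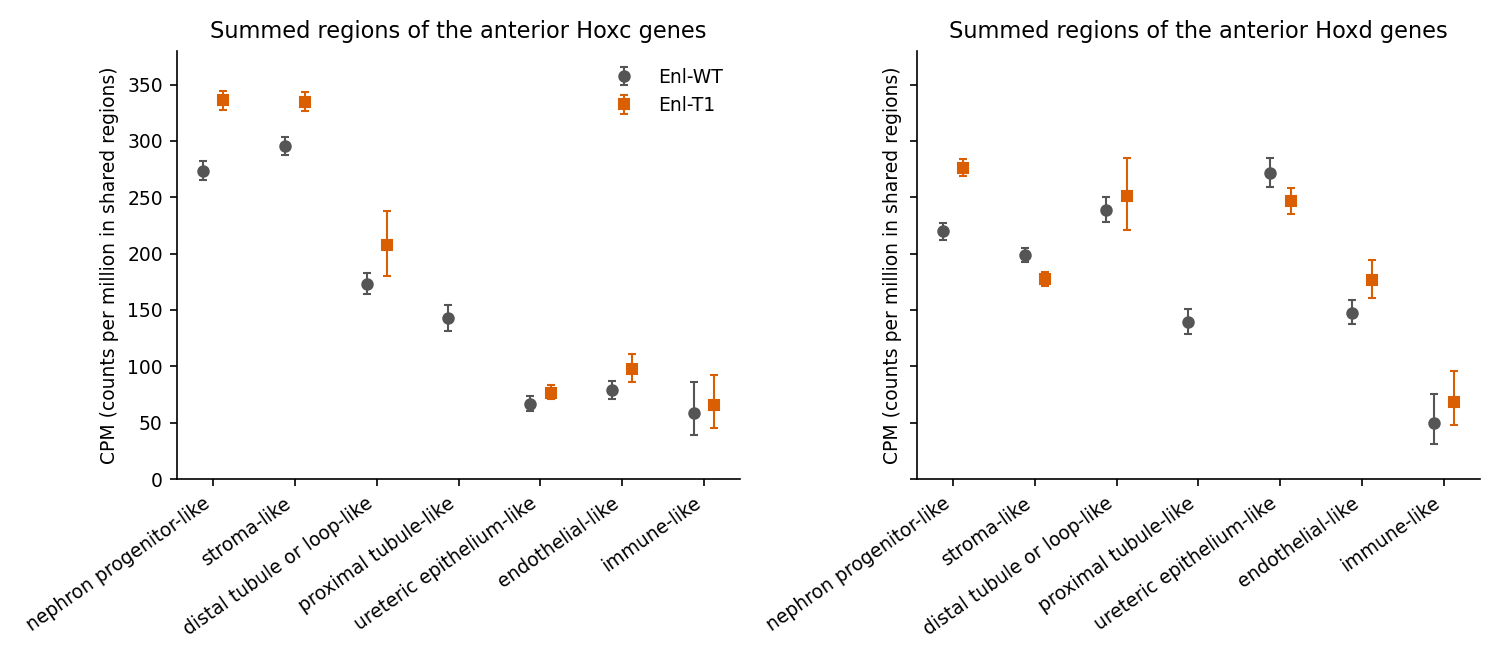
CPM of the summed regions of the anterior Hoxc genes (left) and Hoxd genes (right) in each class of nuclei, for Enl-WT (circles) and Enl-T1 (squares), with 95% counting intervals; classes with under 50 nuclei in a library are left out. Hoxc levels were highest in stroma-like and progenitor-like nuclei and lowest in ureteric epithelium-like, endothelial-like and immune-like nuclei, whereas the Enl-WT Hoxd level was highest in ureteric epithelium-like nuclei.

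Levels were compared between genes per kb of called peak. In control progenitor-like nuclei *Hoxc5*, which takes part in the identity of neck-level motor neurons, had 24.1 CPM per kb, *Hoxc6*, which acts in the thorax and in forelimb-level motor neurons, 23.5, and *Hoxd8* 23.5. *Hoxc4*, which acts in the thoracic spine and oesophagus, had 20.3 CPM per kb and *Hoxc8*, a gene of the thoracic spine, 17.2. *Hoxd3*, which shapes the uppermost neck vertebra, had 13.4 CPM per kb, *Hoxd4*, a retinoic acid target that shapes the next one, 12.0, and *Hoxd1*, which acts in pain-sensing neurons, 9.21. In ureteric epithelium-like nuclei the levels were led by *Hoxd8* with 34.4, *Hoxd1* with 19.0 and *Hoxd4* with 15.8 CPM per kb, and *Hoxc8* was lowest with 2.01. The window of *Hoxc5* follows a gene model that a non-coding transcript extends back over *Hoxc6*, *Hoxc8* and *Hoxc9* to *Hoxc10*, so 9 regions counted for it, among them all those of *Hoxc6* and *Hoxc8*. All 8 regions of *Hoxd4* likewise counted for *Hoxd3*, which had 11.

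In nephron progenitor-like nuclei *Hoxd4*, *Hoxc4*, *Hoxc8*, *Hoxd3*, *Hoxd1* and *Hoxc5* had a higher level in Enl-T1 than in the control. Their intervals lay above 0, but the share of all gene windows with such an interval is not given here. Some of these genes share regions and so are not separate measurements. *Hoxd4* had 85.7 CPM (81.1 to 90.5) in the control and 131 (126 to 136) in Enl-T1, so that log2 of the ratio of Enl-T1 to Enl-WT, the log2 ratio from here on, was 0.61 (0.51 to 0.71). The levels that follow are given with the control before Enl-T1. *Hoxc4* had 57.6 and 82.2 CPM (0.52, 0.39 to 0.64) and *Hoxc8* had 28.0 and 40.1 CPM (0.51, 0.34 to 0.69). *Hoxd3* had 146 and 202 CPM (0.47, 0.39 to 0.54), with most of its regions shared with *Hoxd4*. *Hoxd1* had 13.2 and 16.4 CPM (0.31, 0.05 to 0.57) and *Hoxc5* had 216 and 254 CPM (0.23, 0.17 to 0.30). *Hoxc6*, with 74.7 and 73.5 CPM (-0.02, -0.14 to 0.09), and *Hoxd8*, with 60.7 and 57.9 CPM (-0.07, -0.20 to 0.06), had intervals that included 0. Some of these values turned on the setting: *Hoxc5* was at -0.11 with all peaks of each library, *Hoxd1* at 0.05 with finer clusters (resolution 2), and *Hoxc6* at 0.82 with windows from protein-coding transcripts.

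Taking a log2 ratio of 0.5 in sums of at least 200 counts as the mark, 3 of the 8 genes, *Hoxc4*, *Hoxc8* and *Hoxd4*, were past it toward Enl-T1 and 0 toward Enl-WT, and with windows from protein-coding transcripts *Hoxc6* was past it too. Of 16321 gene windows in this class, 2.24% were that far higher in Enl-T1 and 3.1% that far lower, and their median log2 ratio was 0.00. *Hoxc4* and *Hoxc8* lay just past the mark and *Hoxd3* just short of it. With all peaks of each library *Hoxc4* was at 0.14, and at resolution 2, which kept 438 control and 3977 Enl-T1 progenitor-like nuclei, *Hoxc8* was at 0.33, while over all alternatives *Hoxd4* lay between 0.49 and 0.79. The 0.49 came with windows of 1 kb around gene starts, where the start used for *Hoxd4* is the distal *Hoxd3* start. Summed over distinct regions, the Hoxc genes had 274 and 336 CPM, a log2 ratio of 0.30 (0.24 to 0.35), and the Hoxd genes 219.8 and 276 CPM, a log2 ratio of 0.33 (0.27 to 0.39). Peaks called in 1 library alone are not in these sums, and with all peaks of each library the Hoxc log2 ratio turned to -0.05, while the Hoxd one was 0.41. The Hoxd one was 0.11 with windows of 1 kb around gene starts and 0.20 at resolution 2, where the Hoxc one was 0.15. These windows follow the starts of the gene models. The starts of the protein-coding *Hoxc5*, *Hoxc6* and *Hoxd4* transcripts are therefore not in them. Inside cluster 3, the 1 progenitor-like cluster with at least 50 nuclei of both libraries (1504 and 95), the log2 ratio was 0.18 (-0.09 to 0.43) for the Hoxc and -0.14 (-0.47 to 0.18) for the Hoxd genes.

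**Figure D2:**
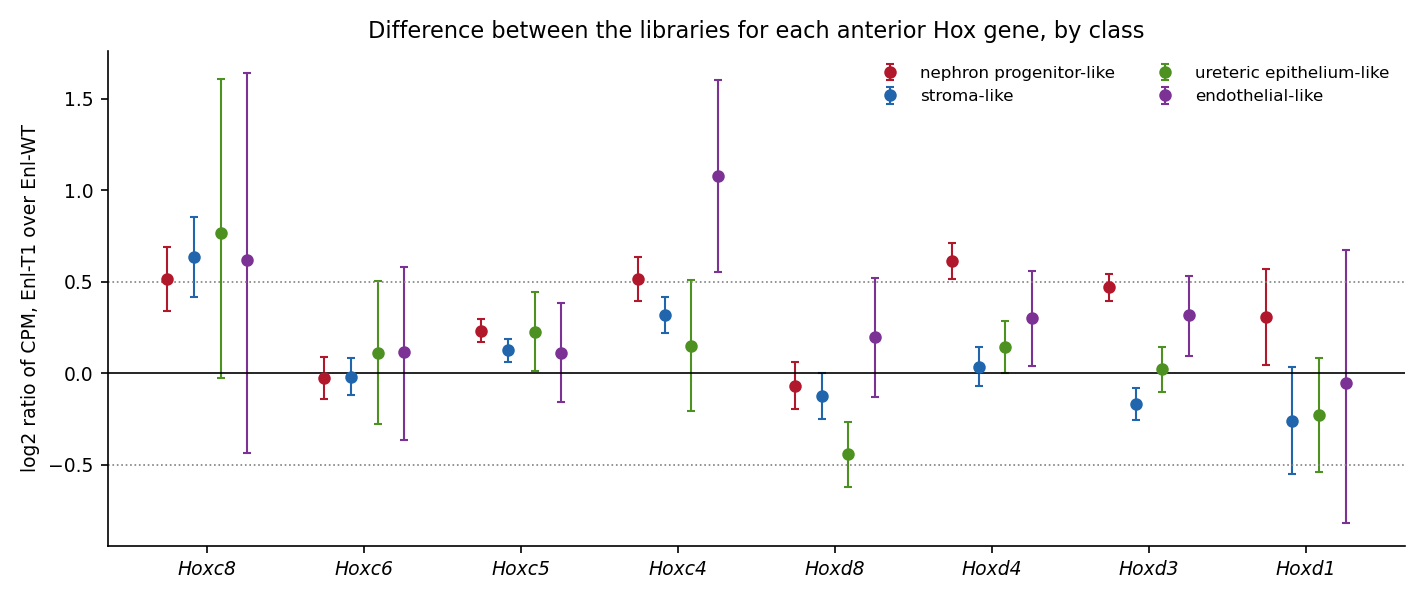
Log2 ratio of CPM in Enl-T1 over Enl-WT for each anterior Hox gene, in order along HoxC and then HoxD, in 4 classes of nuclei, with 95% counting intervals; dotted lines mark 0.5 in either direction. In nephron progenitor-like nuclei *Hoxd4* (0.61) was highest and *Hoxd8* (-0.07) lowest, and the intervals in endothelial-like nuclei were wide.

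The size of the difference varied between the regions of one gene. The region over the *Hoxd4* start (chr2:74721572-74722413), which contains the *Hoxd4* sequence printed above, had 4.27 CPM from 130 counts in control progenitor-like nuclei and 15.3 CPM from 578 counts in those of Enl-T1, which made the log2 ratio 1.84 (1.44 to 2.25). It was called 822 bp wide for Enl-WT and 842 bp wide for Enl-T1. In the stroma-like nuclei of the same libraries it had 16.8 and 18.6 CPM (0.15, -0.08 to 0.38), so the Enl-T1 progenitor-like level was near that of stroma. In ureteric epithelium-like nuclei it had 6.70 and 8.53 CPM and in endothelial-like nuclei 8.46 and 8.78 CPM. The control level was 4.39 CPM (3.21 to 5.87) in cluster 3 and 4.06 CPM (2.46 to 6.30) in cluster 13, and the Enl-T1 level was 16.7 CPM (14.5 to 19.1) in cluster 0 and 12.9 CPM (10.1 to 16.2) in cluster 6. Both Enl-T1 clusters lay above both control clusters, but they are parts of the same libraries and not replicates. The region was also picked for its high ratio in this class. The 95 Enl-T1 nuclei of cluster 3 gave 2 counts there, or 2.33 CPM (0.0590 to 13.0), an interval that contains the control level of the same cluster.

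Other Hoxd regions were higher in Enl-T1 by smaller amounts. The region between *Hoxd8* and *Hoxd3* (chr2:74709267-74710160) had 6.54 and 12.3 CPM (0.91, 0.56 to 1.26), the last part of *Hoxd4* (chr2:74728483-74729490) had 7.53 and 13.6 CPM (0.85, 0.53 to 1.18), and a *Hoxd3* start inside the gene (chr2:74732884-74734029) had 10.0 and 16.8 CPM (0.75, 0.46 to 1.04). The distal *Hoxd3* start (chr2:74711443-74712356) had 17.0 and 23.9 CPM (0.49, 0.27 to 0.72). In contrast, a *Hoxd3* intron region (chr2:74740339-74741909) had 35.2 and 31.7 CPM (-0.15, -0.32 to 0.02), and the *Hoxd8* start region, the highest of the 13 in the control with 60.7 CPM, had an interval around 0. The *Hoxd8* start region was called 2584 bp wide for Enl-WT and 2034 bp wide for Enl-T1. Per kb of called peak it had 23.5 and 28.4 CPM, and the part of width was not tested. Of the 13 Hoxd regions, 7 were past 0.5 toward Enl-T1 and 0 toward Enl-WT, where 12.9% and 14.9% of 75149 regions were. Their median log2 ratio was 0.54, against -0.002 over all those regions. The 5th and 95th percentiles over all those regions were -0.91 and 0.94, and each region named in this paragraph lay between them.

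Along HoxC the region that differed most lay in *Hoxc4*, at the anterior end. The *Hoxc4* intron region (chr15:103032502-103033542) had 13.7 and 27.7 CPM (1.01, 0.78 to 1.25), and the distal *Hoxc4* start (chr15:103018381-103019361) had 9.24 and 16.0 CPM (0.79, 0.50 to 1.09). The exon at the start of the protein-coding *Hoxc6* transcript (chr15:103009602-103010495) had 10.1 and 17.9 CPM (0.82, 0.54 to 1.11), and the *Hoxc8* start (chr15:102990046-102991020) had 9.99 and 16.6 CPM (0.74, 0.45 to 1.03). These 4 regions, all past 0.5, were the lowest of the 12 in the control. Of the 4, the *Hoxc4* intron region alone lay above the 95th percentile of all regions tested, 0.94. A pair of neighbouring regions at the upstream end of the *Hoxc6* gene model went the other way, with 33.9 and 29.0 CPM (-0.23, -0.40 to -0.05) and 30.7 and 26.6 CPM (-0.21, -0.39 to -0.02), and they made up most of the *Hoxc6* sum. Both lie outside protein-coding transcripts. The first of the pair was called 1491 bp wide for Enl-WT and 947 bp wide for Enl-T1, and the part of width was not tested. The coding exon of *Hoxc5* (chr15:103014118-103015161) had 38.1 and 44.9 CPM (0.24, 0.08 to 0.39), and that of *Hoxc4* (chr15:103034809-103035729) had 34.6 and 38.5 CPM (0.16, -0.01 to 0.32). Of the 12 Hoxc regions 4 were past 0.5 toward Enl-T1 and 0 toward Enl-WT, against 12.9% and 14.9% of all regions tested, with a median log2 ratio of 0.33. Inside cluster 3 the *Hoxc4* intron region had a log2 ratio of -0.35 (-1.99 to 0.91), from 10 counts in Enl-T1.

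The posterior ends of the clusters stood beside these. Of the 7 HoxC regions before *Hoxc8*, 3 of which lie in the long *Hoxc5* window, 2 were past 0.5 toward Enl-T1 and the median log2 ratio was 0.29, against 4 of 9 and 0.38 for those from *Hoxc8* on. Of the 8 HoxD regions before *Hoxd8*, 0 were past 0.5 toward Enl-T1 and 2 toward Enl-WT, with a median of -0.14, against 8 of 15 toward Enl-T1 and a median of 0.54 from *Hoxd8* on. Over the 75149 regions tested in this class, 12.9% were past 0.5 toward Enl-T1 and 14.9% toward Enl-WT. Whether the ends differ was not tested. The 2 HoxD regions that were lower lay before *Hoxd11* (-0.81, -1.06 to -0.56) and at the *Hoxd10* start (-0.56, -0.78 to -0.34). A region just past the end of *Hoxd3*, outside the windows of the 8 genes (chr2:74749078-74750287) had 36.2 and 60.3 CPM (0.74, 0.59 to 0.89).

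**Figure D3:**
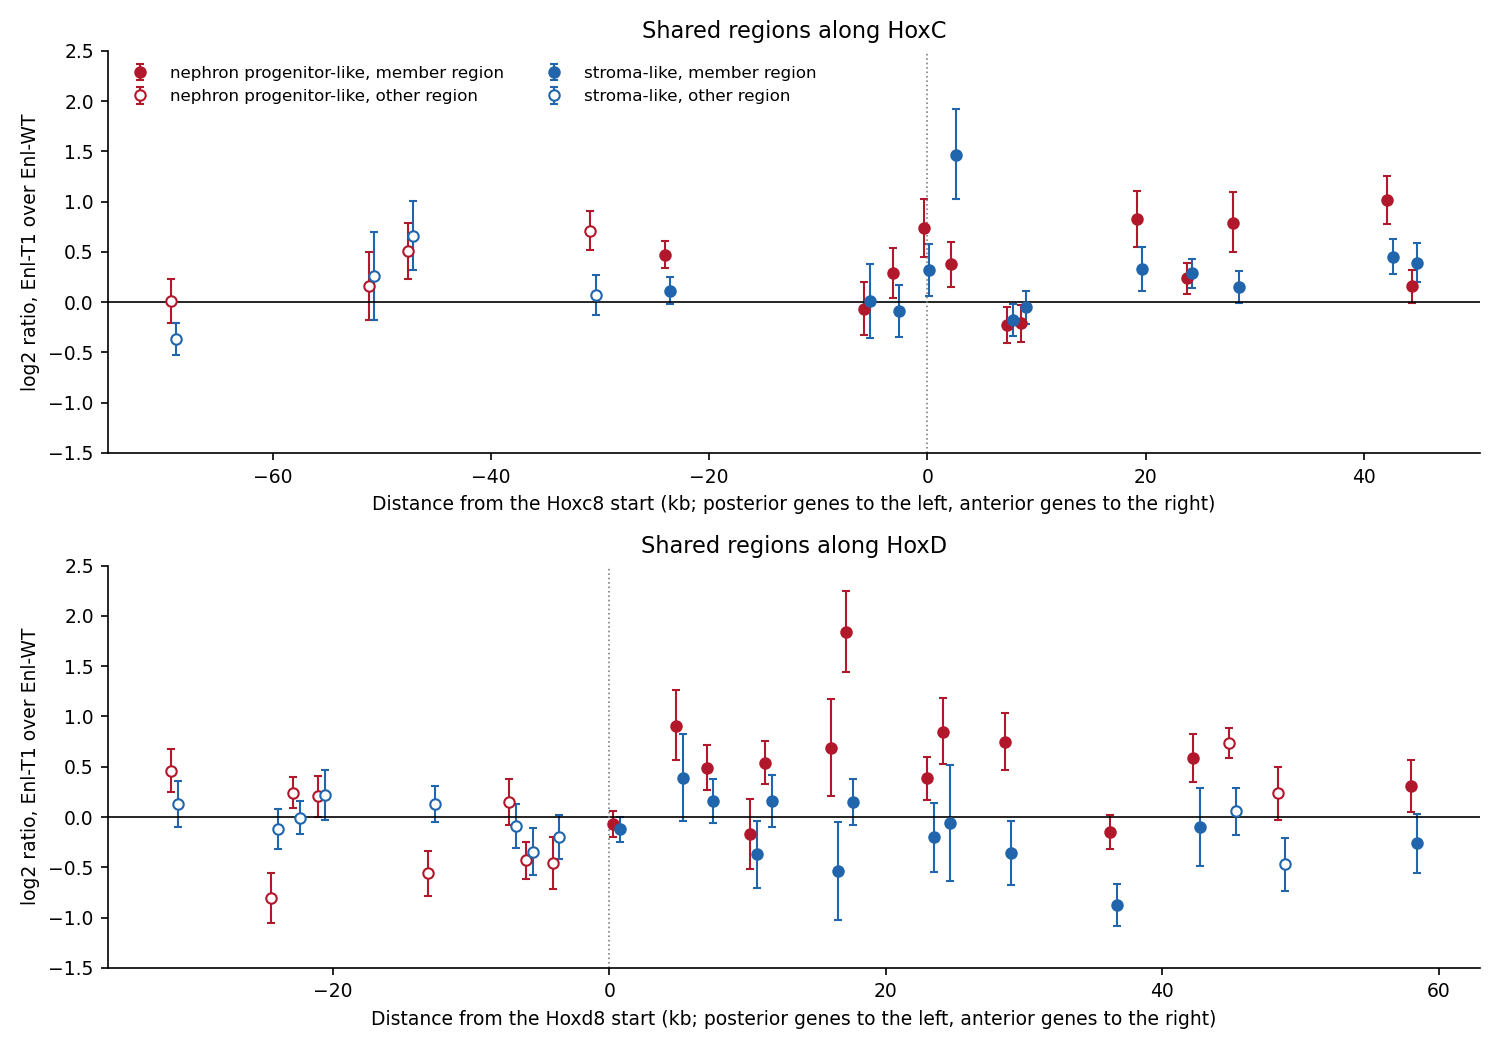
Log2 ratio of CPM in Enl-T1 over Enl-WT for each shared region, with 95% counting intervals, against its distance in kb from the *Hoxc8* start (top, HoxC) or *Hoxd8* start (bottom, HoxD); filled points are regions of the anterior genes and open points the other regions. In nephron progenitor-like nuclei the *Hoxd4* start region stood highest at 1.84. There 7 of the 13 filled HoxD points were at 0.5 or above, as were 12.9% of 75149 regions. In stroma-like nuclei the *Hoxc8* exon region was highest at 1.47.

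In stroma-like nuclei the Hoxc sum was higher and the Hoxd sum lower in Enl-T1, both inside the spread of gene windows given below. The libraries filled different clusters here too, since clusters 9 and 15 held 22.0% and 11.6% of the Enl-T1 class and 0.0340% and 1.05% of the control class, and cluster 8 held 4.47% and 29.0%. *Hoxc8* had 16.0 and 24.9 CPM (0.63, 0.42 to 0.85) and *Hoxc4* 80.2 and 99.9 (0.32, 0.22 to 0.42). *Hoxc5* had 215 and 235 CPM (0.12, 0.06 to 0.19) and *Hoxc6* 90.5 and 89.3 (-0.02, -0.12 to 0.08). *Hoxd3* had 125 and 111 CPM (-0.17, -0.26 to -0.08), but 0.16 with windows of 1 kb around gene starts and 0.07 over regions of matched extent, and within clusters its interval was below 0 in cluster 17 only. *Hoxd8* had 61.7 and 56.6 CPM (-0.12, -0.25 to -0.00), *Hoxd1* 11.9 and 9.95 (-0.26, -0.55 to 0.03) and *Hoxd4* 78.9 and 80.9 (0.04, -0.07 to 0.14). The sums gave a log2 ratio of 0.18 (0.13 to 0.23) for the Hoxc and -0.16 (-0.23 to -0.09) for the Hoxd genes. Both lay between the 5th and 95th percentiles of gene windows in this class, -0.30 and 0.32. With all peaks of each library the Hoxc log2 ratio was -0.08, and over regions of matched extent the Hoxd one was 0.07, so both directions hung on how regions were drawn. Within the 5 clusters with at least 50 nuclei of both libraries (1, 4, 5, 8 and 17) the Hoxc sum had 0.07, 0.10, 0.09, 0.35 and 0.04, with an interval above 0 in cluster 8 only. The Hoxd sum had -0.19, -0.03, -0.10, -0.19 and -0.36 in these clusters, with intervals below 0 in clusters 1 and 17. *Hoxc4* had 0.04, 0.16, 0.06, 0.75 and 0.47 there, with an interval above 0 in cluster 8 only, and *Hoxc8* had 0.39, 0.61, 0.50, 0.69 and 0.38, with intervals above 0 in clusters 4 and 8. *Hoxc8* alone was past 0.5 (0.32 with windows of 1 kb around gene starts), where 1.57% of 16216 gene windows were that far higher and 1.31% lower.

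The *Hoxc8* difference in stroma-like nuclei lay mostly in an exon region (chr15:102992595-102993435), which had 3.22 CPM from 118 counts in the control and 8.92 CPM from 321 counts in Enl-T1, which made the log2 ratio 1.47 (1.03 to 1.92). The *Hoxc8* start region had 12.8 and 16.0 CPM there (0.32, 0.06 to 0.57). Within single stroma-like clusters the log2 ratio of the exon region was 1.09 (-0.07 to 2.40) in cluster 1, 1.42 (0.11 to 2.88) in cluster 4, 1.59 (0.19 to 3.14) in cluster 5, 1.16 (0.07 to 2.16) in cluster 8 and 0.59 (-2.14 to 3.04) in cluster 17. It was above 0 in all 5 clusters with at least 50 nuclei of both libraries, with intervals above 0 in 3 of them. These clusters are parts of the same libraries and not replicates, and the region was picked for its high ratio in this class. Its level was 18.3 CPM (14.3 to 23.1) in cluster 9, which held 1053 nuclei of Enl-T1 and 1 of Enl-WT. In progenitor-like nuclei the region had 549 and 886 counts, with a log2 ratio of 0.38 (0.16 to 0.60).

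The *Hoxd3* intron region had the lowest log2 ratio among the Hoxd regions of stroma-like nuclei, with 29.0 and 15.8 CPM (-0.87, -1.09 to -0.66). It was called 1539 bp wide for Enl-WT and 1005 bp wide for Enl-T1, and the part of width in the difference was not tested. Within clusters the log2 ratio was -0.62 (-1.10 to -0.14) in cluster 1 and -0.61 (-1.06 to -0.17) in cluster 5, and the intervals of clusters 4, 8 and 17 (-0.32, -0.45 and -0.79) included 0. Of the 12 Hoxc regions 1 was past 0.5 toward Enl-T1 and 0 toward Enl-WT in stroma-like nuclei, and of the 13 Hoxd regions 0 and 2. Over 76527 regions the shares were 9.94% and 8.25%.

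**Figure D4:**
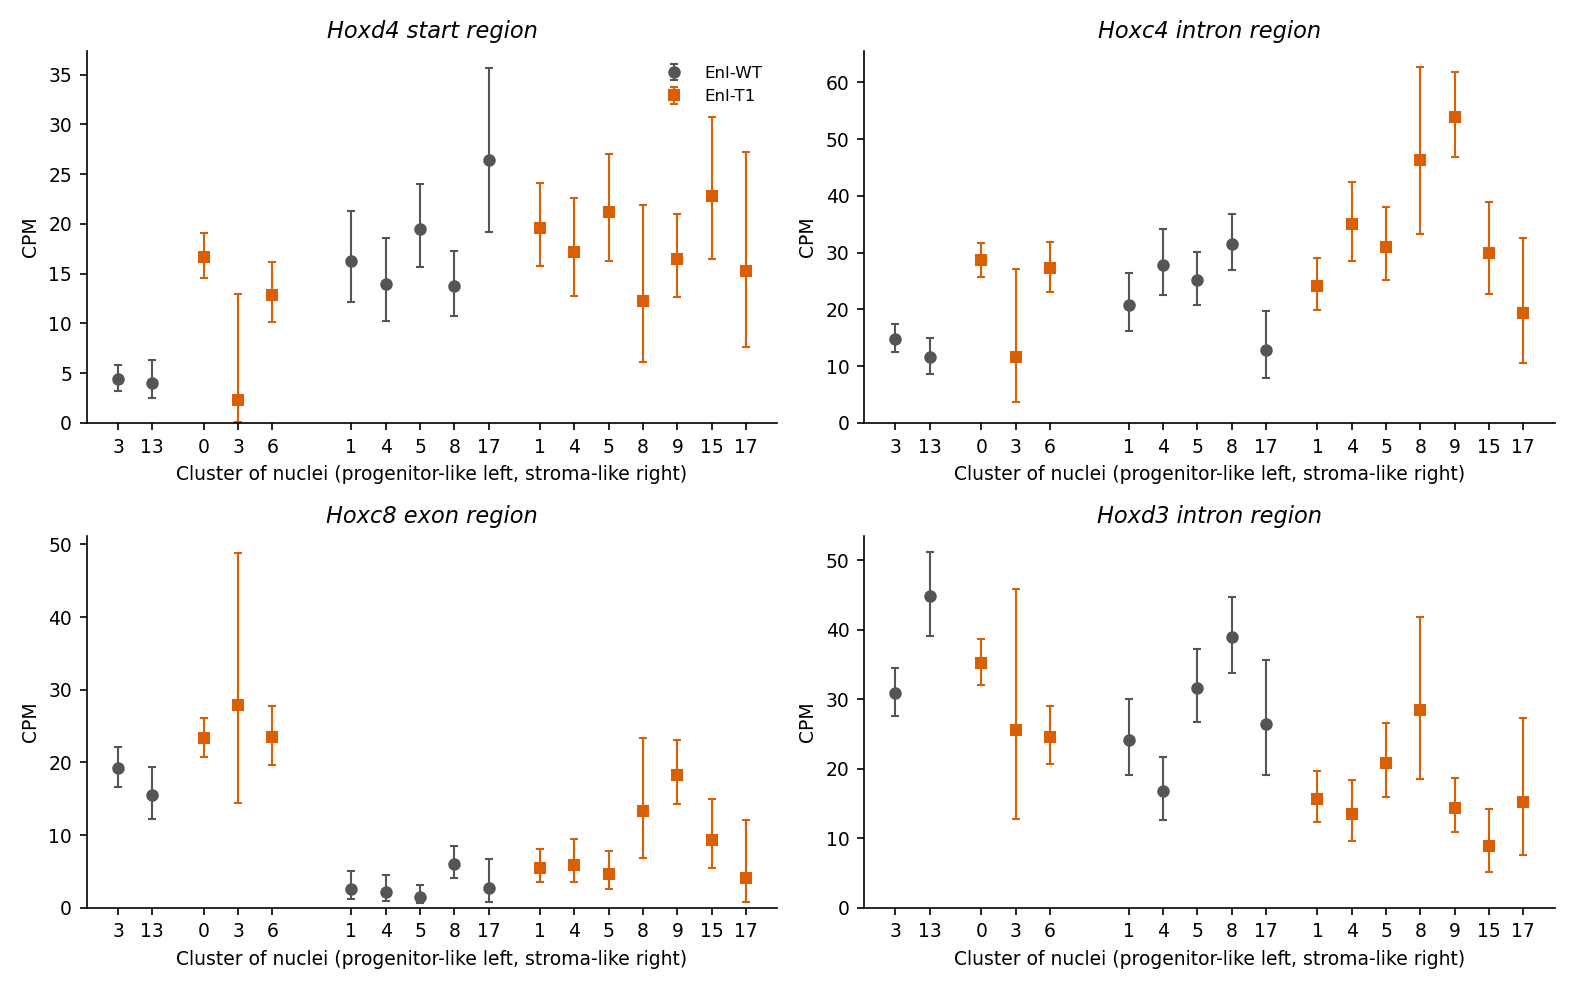
CPM of 4 regions in each cluster of progenitor-like (left) and stroma-like (right) nuclei with at least 50 nuclei in the library, for Enl-WT (circles) and Enl-T1 (squares), with 95% counting intervals. At the *Hoxd4* start the Enl-T1 clusters 0 and 6 lay at 16.7 and 12.9 CPM, above 4.39 and 4.06 in the Enl-WT clusters 3 and 13, while the Enl-T1 nuclei of cluster 3 lay at 2.33. Clusters of one library are not replicates.

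In ureteric epithelium-like nuclei, where the Cre does not act, *Hoxd8* was lower in Enl-T1, with 88.8 and 65.3 CPM (-0.44, -0.62 to -0.27). The called width of its region was 2584 bp in the control and 2034 bp in Enl-T1. *Hoxd4* had 113 and 125 CPM (0.14, 0.00 to 0.29), *Hoxd3* 155 and 158 (0.02, -0.10 to 0.15) and *Hoxd1* 27.4 and 23.4 (-0.23, -0.54 to 0.08). *Hoxc5* had 48.0 and 56.2 CPM (0.23, 0.01 to 0.44), *Hoxc6* 15.8 and 17.1 (0.11, -0.28 to 0.50) and *Hoxc4* 18.5 and 20.5 (0.15, -0.21 to 0.51). *Hoxc8* had 41 and 85 counts there, too few to be set against the mark (0.77, -0.02 to 1.61). Among the 7 genes with at least 200 counts 0 were past 0.5 in either direction, against 1.41% of 15389 gene windows higher and 1% lower. Of 12 Hoxd regions with enough counts 1 was past 0.5 in each direction, and of 5 Hoxc regions 0, against 5.69% of regions higher and 4.3% lower. The sums had log2 ratios of 0.21 (0.02 to 0.39) for the Hoxc and -0.14 (-0.24 to -0.04) for the Hoxd genes. Both lay between the 5th and 95th percentiles of gene windows in this class, -0.30 and 0.32. With all peaks of each library the Hoxc log2 ratio was -0.06, and over regions of matched extent the Hoxd one was 0.22.

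In endothelial-like nuclei, the other class without Cre, *Hoxc4* had 12.5 and 26.3 CPM from 253 counts in all, and its log2 ratio of 1.08 (0.55 to 1.60) was the largest of the 8 genes in these 4 classes. Over the alternatives this value lay between 0.79, with doublets removed, and 1.96, with windows of 1 kb around gene starts. The distal *Hoxc4* start had 24 counts in the control and 46 in Enl-T1 (1.96, 0.89 to 3.10). *Hoxd3* had 92.3 and 115 CPM (0.32, 0.10 to 0.53), *Hoxd4* 66.1 and 81.4 (0.30, 0.04 to 0.56) and *Hoxd8* 45.2 and 51.8 (0.20, -0.13 to 0.52). *Hoxc5* had 66.3 and 71.6 CPM (0.11, -0.16 to 0.38) and *Hoxc6* 22.5 and 24.3 (0.11, -0.37 to 0.58). *Hoxc8* (0.62, -0.44 to 1.64) and *Hoxd1* (-0.05, -0.82 to 0.67) had under 200 counts. Of the 6 genes with enough counts 1 was past 0.5 toward Enl-T1 and 0 toward Enl-WT, where 1.89% and 1.72% of 13619 gene windows were. Of 3 regions with enough counts 0 were past it in either direction, against 2.37% of regions higher and 7.93% lower. The sums had log2 ratios of 0.32 (0.08 to 0.55) for the Hoxc and 0.26 (0.08 to 0.43) for the Hoxd genes, and the Hoxc one was -0.04 with all peaks of each library. The 5th and 95th percentiles of gene windows in this class were -0.37 and 0.36, with both sums between them.

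Shares of nuclei with a fragment were compared after every nucleus was thinned to 1000 fragments. In progenitor-like nuclei *Hoxd4* was found in 8.17% of control and 12.2% of Enl-T1 nuclei, whereas without thinning the shares were 43.9% and 44.9%. *Hoxc4* was found in 5.57% and 8.08% (32.6% and 32.1% without thinning). *Hoxd8* was found in 5.64% and 5.38% after thinning (32.4% and 23.5% without it). The median depths of this class were 15794 and 9930 counts, and thinning left out 2 and 0 nuclei. In ureteric epithelium-like nuclei, where Hoxc levels were low, *Hoxc4* was found in 1.85% and 1.82% after thinning, an order opposite to that of its CPM.

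Some peaks in the windows of the 8 genes were called in 1 library alone, 7 in the control and 2 in Enl-T1. A control peak in the *Hoxc4* intron (chr15:103023482-103024776) had 16.9 CPM in progenitor-like nuclei, 4.15 in the stroma and 0.798 in the ureteric epithelium. A control peak in introns of *Hoxd3* and *Hoxd4* (chr2:74723725-74724771) had the opposite order, with 3.55 CPM in progenitor-like, 9.84 in stroma-like and 12.8 in ureteric nuclei. A *Hoxd3* intron peak of Enl-T1 (chr2:74734307-74735140) had 20.7 CPM in progenitor-like and 8.56 in stroma-like nuclei. The other library's counts at these places were not used here, so no ratio is given.

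Other Hox genes in progenitor-like nuclei ranged widely. In the anterior part of HoxA 2 of the 6 genes with at least 200 counts were past 0.5 toward Enl-T1, *Hoxa4* at 0.64 and *Hoxa5* at 0.89, *Hoxa2* was lowest at -0.31, and the median was 0.23. The anterior part of HoxB had 0 of 8 past 0.5 toward Enl-T1 and 2 toward Enl-WT, *Hoxb7* and *Hoxb8*, which share the same regions and so give 1 measurement, at -0.89, and *Hoxb5* was highest at 0.33. The medians were 0.37 for the 4 anterior Hoxc and 0.39 for the 4 anterior Hoxd genes. They were 0.01 for 3 of the 5 posterior Hoxc genes (*Hoxc9* lowest at -0.06, *Hoxc10* highest at 0.47), since *Hoxc11* and *Hoxc12* had 0 counts in shared regions. Each of the 3 genes with counts rested on 1 region. Those of *Hoxc9* and *Hoxc10* also counted for *Hoxc5*, so the anterior and posterior Hoxc values share regions. Over all HoxC regions before *Hoxc8* the median was 0.29. For 4 of the 5 posterior Hoxd genes the median was -0.09 (*Hoxd10* lowest at -0.56, *Hoxd12* highest at 0.46). Of the posterior Hoxa genes *Hoxa13* was highest at 0.92 and *Hoxa10* lowest at -0.18, and of the posterior Hoxb genes *Hoxb9* was at 0.62 and *Hoxb13* at 0.27.

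Genes known to act upstream of Hox genes were read the same way. Of 14 regulators of Hox genes 12 had enough counts in progenitor-like nuclei, and 1 was past 0.5, *Cyp26a1*, which breaks down retinoic acid, with 4.21 and 6.37 CPM (0.60, 0.15 to 1.06). *Ezh2*, the methylase of the Polycomb complex that keeps Hox genes silent, was the lowest, with 62.3 and 51.8 CPM (-0.27, -0.40 to -0.14). In stroma-like nuclei 0 of 12 regulators were past 0.5 in either direction, and *Ezh2* was again lowest at -0.37. Among all gene windows, 2.24% were that far higher and 3.1% lower in progenitor-like nuclei, against 1.57% and 1.31% in stroma-like nuclei. *Ezh2* was lowest of the regulators in the classes without Cre too. Its log2 ratio there was -0.34 (-0.55 to -0.12) for ureteric epithelium and -0.24 (-0.54 to 0.04) for endothelium. The part of *Ezh2* in the Hox values was not tested.

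Outside the Hox loci, the genes whose CPM followed the Hoxc sum most closely over 13 profiles (the classes of each library with at least 50 nuclei) were *Asic2* (Pearson r = 0.97), *Cntnap4* (0.97) and *Cacna2d1* (0.96), of 16048 genes searched. For the Hoxd sum they were *Sorbs2* (0.98), *Efna5* (0.97) and *Bicd1* (0.97). These profiles share libraries and depth and the genes were picked as the highest of many, so the values are descriptions.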

How the data were processed

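The authors made the snATAC-seq libraries from nuclei isolated from homogenized kidneys. Per the labels, they processed them with Cell Ranger ATAC 2.1.0 on mm10. Per library they deposited the peaks, the barcodes and a sparse matrix of raw whole-number counts. Of the Enl-WT values 91.1% were even and of the Enl-T1 values 88.0%, so a fragment was taken as 2 counts. The Enl-WT library totalled 138176616 counts over 159560 peaks (mean width 1013 bp) and the Enl-T1 library 110265593 over 130027 (912 bp).

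Barcodes with 2000 to 100000 counts were kept; the study's filters on fragments in peaks, blacklisted regions and start sites need fragment files, which were not used here. Peaks overlapping by 1 bp formed shared regions. Nuclei were clustered together by latent semantic indexing (components 2 to 30, scikit-learn 1.9.0) and the Leiden algorithm (leidenalg 0.10.2, resolution 1), without 167 regions of the 4 Hox loci and 100 kb around them, into 28 clusters, with no step to align the libraries. Clusters were named from lists of marker genes by their mean log2 ratio to the median cluster (at least 0.4, at least 3 markers raised, a lead of 0.1 over the next lineage). This rule was set with the clusters in view, and its minimum of 20 CPM for leading genes was added after cluster 3 had lost its name to *Umod*, a loop gene of low count. Doublets, scored against simulated pairs (7.71% of control and 10.7% of Enl-T1 barcodes), were kept in the main values and removed in an alternative.

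CPM intervals are exact Poisson and those of ratios exact binomial on fragments (SciPy 1.17.1); these cover counting error only and were tested on simulated data. The members, gene lists and motifs were chosen with earlier results of these data known. All 8 genes are given in all 4 compared classes; of the other lists, the highest and lowest ratio and those past 0.5. The remaining regions named were chosen after their values were seen. Sequences and promoters are RefSeq, GRCm38.p6. One list of genes is not reported here. Alternatives are listed in the closing section.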

Additional observations from a re-analysis of the deposited data

Results flagged for a closer look

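*Hoxd3* differed in opposite directions between classes, with intervals on both sides of 0: its log2 ratio of Enl-T1 to Enl-WT was 0.47 in nephron progenitor-like and 0.32 in endothelial-like nuclei and -0.17 in stroma-like nuclei. The stroma-like value was 0.16 with windows of 1 kb around gene starts and 0.07 over regions of matched extent, and within stroma-like clusters its interval was below 0 in cluster 17 only. The difference between the classes was not tested.

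Single regions did the same. An intron region of *Hoxd3* just before the *Hoxd4* start (chr2:74720440-74721346) had a log2 ratio of 0.68 in progenitor-like and -0.53 in stroma-like nuclei, but within stroma-like clusters 1, 4, 5, 8 and 17 it was -1.20, -1.55, 0.45, 0.60 and -0.22, and it was called 907 bp wide for Enl-WT and 668 bp for Enl-T1. A *Hoxd3* start region (chr2:74732884-74734029) had 0.75 and -0.36 in these classes, with an interval that included 0 within each of those 5 clusters. The last exon of *Hoxd3* (chr2:74746508-74747660) had 0.58 in progenitor-like and -0.67 in ureteric epithelium-like nuclei. These differences were not tested.

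Peaks called in Enl-T1 alone lie outside the shared regions and carried counts above the limit of 3 counts. The one in an exon of *Hoxc10*, inside the long *Hoxc5* gene model (chr15:102971802-102972584), had 11.9 CPM in the progenitor class, 6.09 in the stroma, 2.56 in the ureteric epithelium and 2.86 in the endothelium. The one in the *Hoxd3* intron (chr2:74734307-74735140) had 20.7 CPM, 8.56, 8.002 and 11.0 in the same order of classes.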

How the results depend on the processing

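Values are log2 ratios, Enl-T1 over Enl-WT, of the summed Hoxc or Hoxd regions. With counts divided by the total of all peaks, the Hoxc ratio was 0.38 in progenitor-like and 0.25 in stroma-like nuclei, and the Hoxd ratio 0.41, -0.091 and, in ureteric epithelium-like nuclei, -0.042. Over matched regions, which overlap by 80% of both peaks, the Hoxc ratio was 0.36 in progenitor-like nuclei, and the Hoxd ratio 0.58 there, 0.072 in stroma and 0.22 in ureteric epithelium-like nuclei. With windows of 1 kb around gene starts, the Hoxc ratio was 0.23 and 0.043 in progenitor-like and stroma-like nuclei, and the Hoxd ratio 0.11, -0.079 and, in ureteric epithelium-like nuclei, -0.32. These are the starts of the gene models, which leaves out the protein-coding starts of *Hoxc5*, *Hoxc6* and *Hoxd4*. With all peaks of each library, the Hoxc ratio was -0.051, -0.084, -0.060 and -0.043 in progenitor-like, stroma-like, ureteric epithelium-like and endothelial-like nuclei, and the Hoxd ratio 0.41 in progenitor-like nuclei. With clusters at resolution 2, where the progenitor-like class kept 438 of 2175 control nuclei and had 3977 of Enl-T1, its ratios were 0.15 (Hoxc) and 0.20 (Hoxd). With windows from protein-coding transcripts only, chosen after seeing the data, the Hoxc ratio was 0.47 in progenitor-like, 0.35 in stroma-like and 0.65 in endothelial-like nuclei. The cause of these shifts was not tested.

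Of 592 recomputed values for sums and single genes, 527 moved by less than their counting interval and 65 by more. Leaving out barcodes found in both libraries was also chosen after seeing the data. With 1 library per group no replicate was left out. No paired analysis was possible because there was 1 library in each group. Depth limits single regions most, above all in endothelial-like nuclei, and regions without a peak in both libraries were not compared.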
